A study of Mus musculus with 8 samples.

Results

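The genes described here encode proteins that coat, bud or fill the fat droplets of milk. They are Btn1a1, Xdh, Plin2, Plin3, Mfge8, Muc1, Muc15, Cidea, Cd36 and Fabp3. They were chosen by gene symbol from knowledge of the globule membrane and of lipid droplets, 10 of the 19505 genes measured, and each had 1 probe set on the array. Expression was measured on 8 Affymetrix arrays of luminal mammary cells sorted by flow cytometry from mice on day 15 of pregnancy, with 500 pg of total RNA amplified per sample. The 4 control samples carried the cell subtype label of control luminal cells. The other 4 samples were labelled as luminal cells of the a3a6KO genotype, and the series describes the 4 in each group as biological replicates. The name refers to the integrin chains alpha 3 and alpha 6, encoded by Itga3 and Itga6. In the sample titles the same 4 samples are marked with DKO together with Ctrl, and the groups follow the subtype label. The sources used here do not give the deleted parts of the genes, the Cre line, the strain, the age of the mice or the markers of the sort.

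Milk fat leaves the luminal cell in an unusual way. Triglyceride is stored in cytoplasmic droplets coated by perilipins, the droplets move to the apical surface, and each is released inside a piece of plasma membrane, the milk fat globule membrane. Butyrophilin (Btn1a1) spans that membrane and binds xanthine oxidoreductase (Xdh), and both are held against the droplet coat protein perilipin 2 (Plin2). Mucins and the glycoprotein Mfge8 lie on the outer face. Before droplets can form, fatty acids have to be taken up and carried in the cell, to which Cd36 and Fabp3 contribute. Mid to late pregnancy is the time when luminal cells accumulate droplets that are secreted after birth.

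All values are log2 expression as deposited, and differences are a3a6KO minus control. Background was taken on each array as the level under which 95% of its 5222 intron control probe sets fell, a limit that lay between 6.38 and 6.90. Of 10 luminal markers, 9 were above background on every array, and the luminal keratin gene Krt18 had means of 11.04 ± 0.18 (control) and 11.12 ± 0.10 (a3a6KO; SD, n = 4 each). Milk protein transcripts were also present, with 6 of 6 alveolar markers above background on every array and 6 of 6 lower on average in a3a6KO. Of the targeted genes, Itga6 stood at 8.83, 8.73, 9.14 and 8.80 in control 1 to 4 and at 5.95, 3.65, 8.21 and 7.85 in a3a6KO 1 to 4. Itga3 stood at 6.72, 6.30, 5.37 and 7.27 in control and at 5.11, 4.34, 5.55 and 5.60 in a3a6KO, with overlap. Itga3 was above background on 1 control array and 0 a3a6KO arrays, and Itga6 on 4 and 2. Itga6 was thus far below control on a3a6KO 1 and 2 and less so on a3a6KO 3 and 4, and whether its probes fall in a deleted part is unknown. Basal and myoepithelial markers were lower on average in a3a6KO in 12 of 12, with 2 above background on every array and 3 on none. Their mean deviation ran from -0.27 to 1.42 over the control arrays and from -0.95 to 0.76 over the a3a6KO arrays.

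Between the genotypes, the differences of the 10 genes ran from -0.74 (Muc1) to 0.33 (Plin3). Muc1, a transmembrane mucin of the apical surface, had the largest difference and was lower in a3a6KO by 0.74 on the log2 scale, a 1.68-fold difference. Mfge8 and Fabp3 had lower means by 0.41 and 0.30, and the central trio of Btn1a1, Xdh and Plin2 differed by 0.205 or less in size. In limma with Benjamini-Hochberg adjustment over all genes, 0 of the 10 genes passed the threshold of 0.05, against 0% of all 19505 genes. Their adjusted p-values ran from 0.944 to 0.998. The targeted genes Itga6, at -2.46 (SE 0.855), and Itga3, at -1.265 (SE 0.420), did not pass either (limma adjusted p = 0.944 for each). Failing the threshold is therefore no sign that a gene was unchanged. At an unadjusted p under 0.05, 1 of the 10 (Muc1, lower) was found, and 5.13% of all genes were. Means were lower in a3a6KO for 7 of 10, against 50.1% of all genes (and 6 of 6 alveolar markers), and the median difference was -0.12, against -0.0025 over all genes. The median was -0.046 without control 1 or without a3a6KO 2, and -0.23 without a3a6KO 3. The median 95% interval of the 10 genes reached 0.46 to either side, so differences of that size would fall within the error of a single gene. In such bulk samples, fewer cells of a type and less RNA per cell cannot be told apart.

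**Figure D1:**
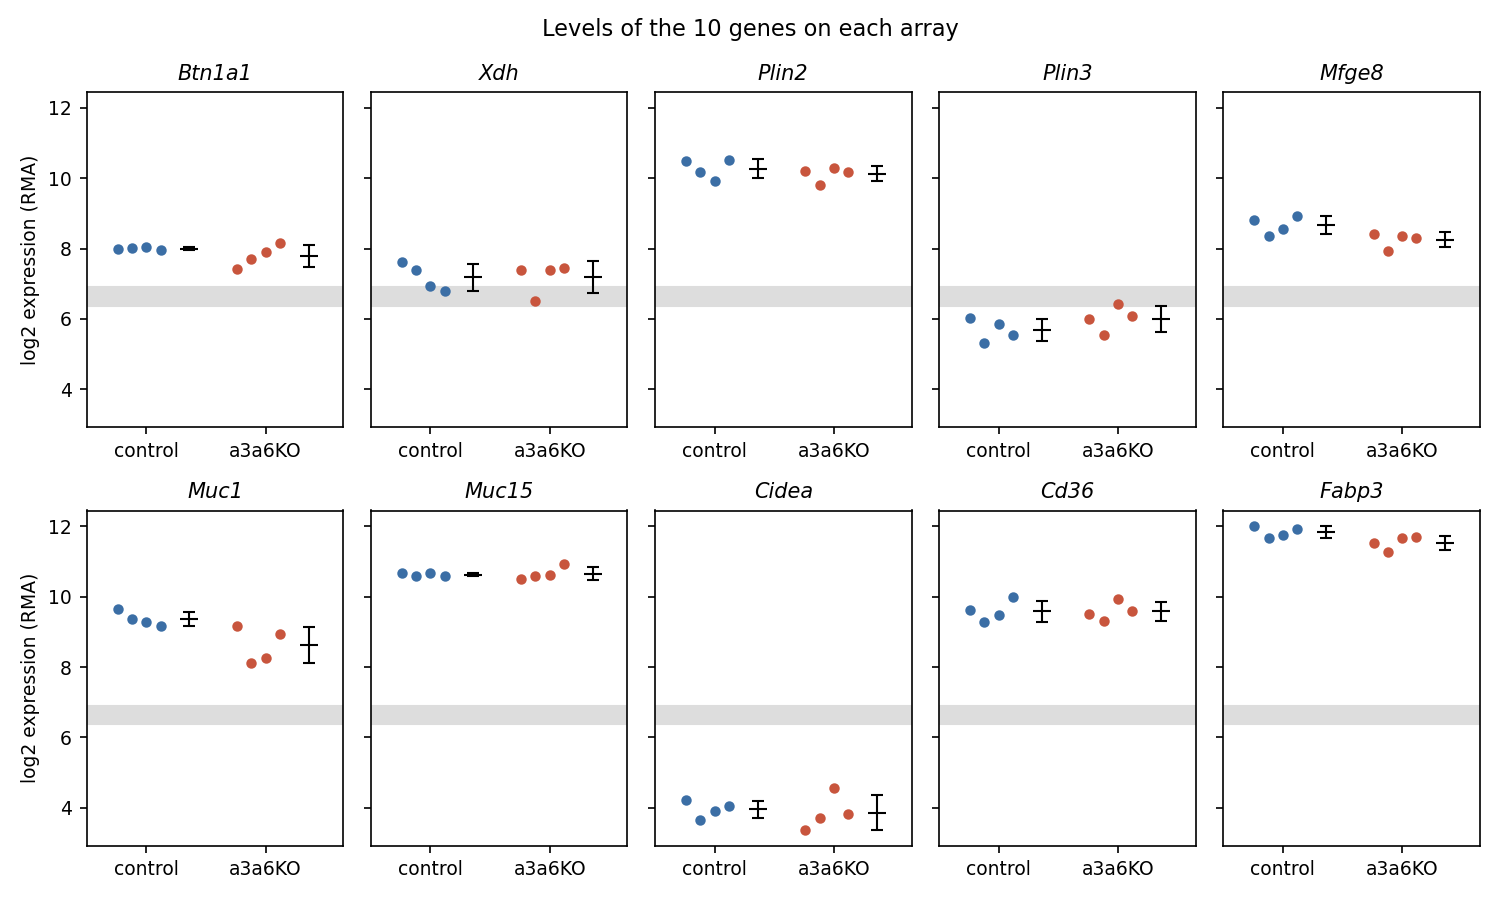
Log2 expression (RMA) of each gene on each array, replicates 1 to 4 from left to right in control (blue) and a3a6KO (red), with the mean and SD of each group (n = 4) in black. The grey band spans the background limits of the 8 arrays (6.38 to 6.90). Plin3 and Cidea lie at or under the band, and only the values of Muc1 do not overlap between the groups. Heights of different genes cannot be compared, since each gene has its own probes.

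**Figure D2:**
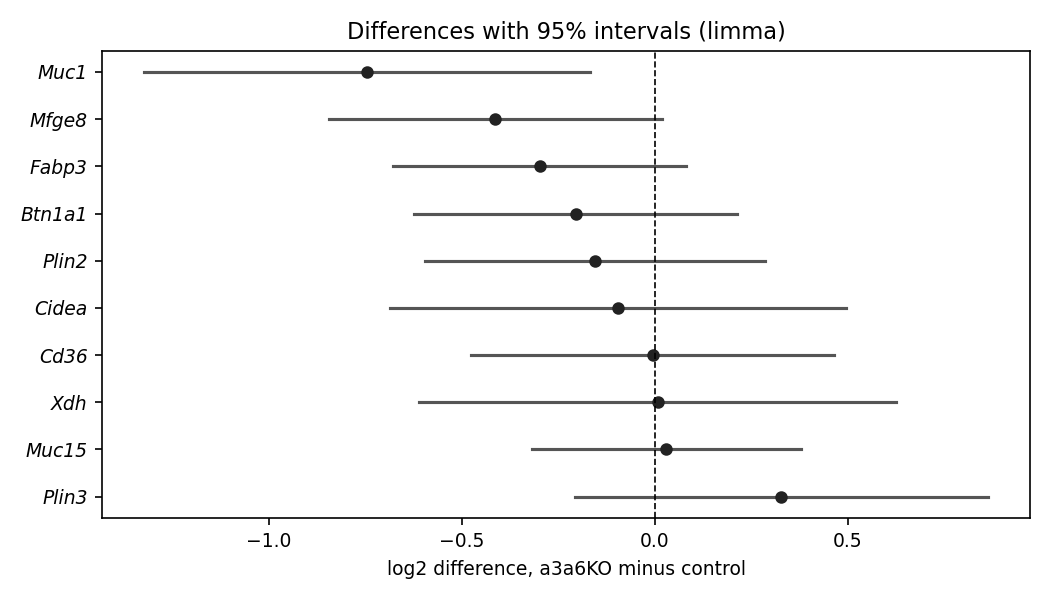
Log2 difference of each gene, a3a6KO minus control (point), with its 95% interval from limma (line). The interval of Muc1, from -1.32 to -0.17, is the only 1 of the 10 that leaves out 0.

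Btn1a1 encodes butyrophilin, without which milk fat is not released in normal globules. It stood at 7.98, 8.03, 8.04 and 7.95 in control and at 7.42, 7.69, 7.9 and 8.17 in a3a6KO, above background on all 8 arrays. The control values were nearly the same, whereas the a3a6KO values spread widely and lay on both sides of them. The a3a6KO mean was 7.79 ± 0.32 (SD, n = 4) and the control SD 0.042, with a difference of -0.205 (SE 0.186, 95% interval -0.62 to 0.21). The difference was -0.08 without a3a6KO 1, -0.33 without a3a6KO 4 and -0.044 with the mean level of the basal keratin genes Krt5, Krt14 and Krt17 on each array as a covariate.

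Xdh encodes xanthine oxidoreductase, an enzyme of purine breakdown that also has a structural part in globule release. Its values were 7.62, 7.38, 6.94 and 6.78 in control and 7.39, 6.51, 7.39 and 7.46 in a3a6KO. The a3a6KO values were tightly grouped apart from a3a6KO 2, the lowest of all 8 and the only one not above background. The group means were alike at 7.18 ± 0.39 and 7.19 ± 0.45 (SD, n = 4), with a difference of 0.0075 (SE 0.275) and an interval from -0.61 to 0.63. The sign had no stability, since the difference was 0.23 without a3a6KO 2 and -0.13 without control 4.

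Plin2 encodes perilipin 2, the main coat protein of droplets in the secretory cell. Its values were 10.49, 10.18, 9.92 and 10.52 in control and 10.21, 9.81, 10.29 and 10.18 in a3a6KO. The groups overlapped, with control 3 and a3a6KO 2 lowest. The difference was -0.155 (SE 0.196, 95% interval -0.60 to 0.29), and it was -0.051 without a3a6KO 2 and -0.27 without control 3.

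The products of these 3 genes meet in 1 complex, so their levels were compared over the 8 arrays. Xdh and Plin2 had the highest correlation (Pearson r = 0.50, exact permutation p = 0.196, Spearman rho = 0.39, exact permutation p = 0.346). Btn1a1 gave r = 0.19 with Xdh (exact permutation p = 0.667; rho = 0.26, p = 0.524) and r = 0.17 with Plin2 (exact permutation p = 0.715; rho = -0.17, p = 0.692). Adjusted over the 3 pairs, the exact permutation p of r was 0.588 for Xdh and Plin2 and 0.715 for both pairs with Btn1a1, and that of rho was 0.692 for each pair. None of the 3 relations was therefore established. Without the 2 arrays farthest from the median on the x axis, r was 0.19 for Btn1a1 and Xdh, -0.48 for Btn1a1 and Plin2, and 0.92 for Xdh and Plin2. Single arrays decided the last pair, with r = 0.93 (exact permutation p = 0.0095 adjusted over the 3 pairs) without control 4 and r = 0.11 without a3a6KO 2.

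Muc1 encodes mucin 1, a heavily glycosylated protein of the apical membrane that becomes part of the globule surface. Its values were 9.66, 9.36, 9.28 and 9.18 in control and 9.16, 8.13, 8.27 and 8.94 in a3a6KO, above background on all 8 arrays. All a3a6KO values lay below all control values, but a3a6KO 1 came within 0.02 of control 4. The means were 9.37 ± 0.21 and 8.62 ± 0.50 (SD, n = 4), a difference of -0.74 (SE 0.256, 95% interval -1.32 to -0.17). The unadjusted limma p was 0.0168, the rank of that p was 325 among all genes, and the adjusted p was 0.944, so the difference failed the correction. The exact permutation p over the 70 assignments was 0.0286, the smallest possible. Groups did not overlap in 1 of the 10 genes, against 2.94% of all genes in either direction and 1.56% in this one. The separation was lost when each array was centred on its median or normalized by quantiles again. The difference kept its sign when any 1 array was left out, at -0.92 to -0.58, and was -0.84 with the basal keratin covariate. Without both arrays of high endothelial markers (control 4 and a3a6KO 3), the difference was -0.69 and its unadjusted p was no longer under 0.05. Luminal marker genes as a group had a median difference of 0.10, higher in 8 of 10. The alveolar markers, which are milk protein genes of the secreting cells, were lower in 6 of 6, with a median of -0.29, Lalba at -0.74 and Wap at -0.58, and 0 passed the threshold. Their mean deviation ran from 0.08 to 0.37 over the control arrays and from -0.46 to -0.03 over the a3a6KO arrays. This list was chosen with earlier results of these data known. Taken singly, groups did not overlap in 1 of the 6 genes, against 2.94% of all genes in either direction. The part of these markers in the Muc1 difference was not tested.

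The promoter window of Muc1 is shown because this gene alone separated the groups. It covers the 250 bases before the RefSeq start on the plus strand of chr3:89228806-89229055 (GRCm38.p6), with matches to the TATA box and the GC box in capitals.
Muc1: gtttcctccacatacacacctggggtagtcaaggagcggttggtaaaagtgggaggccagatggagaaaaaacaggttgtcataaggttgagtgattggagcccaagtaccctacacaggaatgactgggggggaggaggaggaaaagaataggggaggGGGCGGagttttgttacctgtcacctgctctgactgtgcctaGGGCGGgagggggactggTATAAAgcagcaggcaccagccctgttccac
The TATA box (TATAAA) lay 31 to 26 bases before the start and 2 GC boxes (GGGCGG) began 91 and 49 bases before it. Both strands were searched, and the motifs did not overlap. A TATA box was present in 12.4% and a GC box in 32.7% of the 32851 RefSeq promoter windows of this length. Among the 6 of the 10 genes with a window in that table, 1 held a TATA box (Muc1) and 4 held a GC box (Muc1, Cd36, Mfge8 and Plin3). The Stat5-type site TTCNNNGAA (in 7.02% of all windows), the sterol response element TCACNCCAC (in 1.05%) and the PPAR-type direct repeat with a 1-base spacer (in 0.0335%) matched in 0 of the 6 windows. A match or its absence describes these letters in this window and nothing about a factor.

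Mfge8 encodes a secreted glycoprotein, also called lactadherin, that binds phosphatidylserine on the globule and on dying cells and links them to integrins. Its values were 8.82, 8.36, 8.55 and 8.93 in control and 8.41, 7.93, 8.37 and 8.30 in a3a6KO. The groups overlapped narrowly, with a3a6KO 1 and a3a6KO 3 just above control 2, the lowest control value, and the other two below every control. The means were 8.66 ± 0.26 and 8.25 ± 0.22 (SD, n = 4), a difference of -0.41 (SE 0.191, 95% interval -0.84 to 0.018) with an exact permutation p of 0.0857. The limma adjusted p was 0.944. The window of Mfge8 is given for comparison with that of Muc1, as the next gene by p. It lies on the minus strand of chr7:79149061-79149310 (GRCm38.p6), is written 5′ to 3′ towards the start, and has GC boxes of either strand in capitals and no TATA box.
Mfge8: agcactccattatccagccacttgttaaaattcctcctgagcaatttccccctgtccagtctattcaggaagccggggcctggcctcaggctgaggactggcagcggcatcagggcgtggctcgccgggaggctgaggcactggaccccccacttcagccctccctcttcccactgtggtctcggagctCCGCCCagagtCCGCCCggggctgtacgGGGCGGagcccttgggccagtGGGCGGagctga

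Muc15, a second membrane-bound mucin of the globule, contrasted with Muc1. It stood at 10.67, 10.58, 10.67 and 10.60 in control and at 10.5, 10.58, 10.63 and 10.93 in a3a6KO. The groups overlapped, with both the lowest and the highest value in a3a6KO. The difference was 0.03 (SE 0.155), with an interval from -0.32 to 0.38, and it was -0.06 without a3a6KO 4. The within-group SD of 0.14 was small, under that of all but 4.11% of genes. The interval of Muc15 and that of Muc1 overlap, and the difference between their responses was not tested.

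Muc15 and Btn1a1 shared a pattern in these samples, a resemblance picked out after their values were seen. Both varied little in control, and both ranked a3a6KO 1, 2, 3 and 4 from lowest to highest. With group means removed, their likeness over the 8 arrays was r = 0.90, whereas Btn1a1 gave values between -0.13 and 0.44 with the other 8 genes. Among 1590 other named genes above background on every array, the 5 most like Btn1a1 were Nedd8 (r = 0.94), Sesn3 (0.93), Oxct1 (0.91), Smc1a (0.90) and Atp5j (0.90), where 5% of genes exceeded 0.70. These values rest mainly on the 4 a3a6KO arrays, since Btn1a1 hardly varied in control.

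The other droplet coat genes among the 10 were measured close to background. Plin3 encodes perilipin 3, which is found on small nascent droplets and in the cytosol. It stood at 6.03, 5.32, 5.85 and 5.53 in control and at 6.01, 5.53, 6.43 and 6.07 in a3a6KO, above background on 0 arrays. The groups overlapped over most of their range, with a3a6KO 3 highest. Its difference was 0.33 (SE 0.238, 95% interval -0.21 to 0.86), the largest on the higher side among the 10, and it was 0.19 without a3a6KO 3 and 0.49 without a3a6KO 2. Cidea encodes a droplet protein that promotes droplet fusion and has been tied to lipid secretion in the mammary gland. It stood at 4.22, 3.66, 3.90 and 4.05 in control and at 3.37, 3.70, 4.57 and 3.81 in a3a6KO. All 8 values were under background, and the lowest and the highest were both in a3a6KO. The difference of -0.095 (SE 0.262) turned to 0.069 without a3a6KO 1. For these 2 genes the levels lay within the range of the intron sets, and the sizes of their differences are uncertain.

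Fabp3 encodes a cytosolic fatty acid binding protein that is abundant in the lactating gland and in heart. Its values were 12.02, 11.67, 11.75 and 11.92 in control and 11.52, 11.27, 11.68 and 11.70 in a3a6KO. The highest a3a6KO value barely exceeded the lowest control value. The means were 11.84 ± 0.16 and 11.54 ± 0.20 (SD, n = 4), a difference of -0.30 (SE 0.169, 95% interval -0.68 to 0.082) with an exact permutation p of 0.0857. The limma adjusted p was 0.946.

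Cd36 encodes a fatty acid translocase of the plasma membrane that is carried into the globule membrane and is also made by capillary endothelium, adipocytes and macrophages. Its values were 9.61, 9.28, 9.48 and 9.98 in control and 9.50, 9.30, 9.94 and 9.59 in a3a6KO. The 2 groups covered almost the same range, with control 4 and a3a6KO 3 at the top. The difference was -0.005 (SE 0.209), and the 95% interval from -0.47 to 0.46 reaches a 1.39-fold lower and a 1.38-fold higher level. Its sign turned under several settings, from -0.12 without a3a6KO 3 to 0.13 without control 4.

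The same 2 arrays had the highest endothelial and fibroblast markers. The mean deviation of 11 endothelial markers was 1.45 in control 4 and 1.06 in a3a6KO 3 and lay between -0.99 and -0.02 on the other 6 arrays. That of 7 fibroblast markers was 0.59 and 0.95 on those arrays and between -0.31 and -0.18 on the others. Cdh5, the endothelial cadherin, read 8.31 in control 4 and 7.70 in a3a6KO 3 and 4.36 to 6.44 elsewhere. Fabp4, a fatty acid binding protein of adipocytes and capillaries, read 11.42 and 11.25 there and 8.94 to 10.62 elsewhere. Not every endothelial marker had this pattern, since Emcn was highest in a3a6KO 1 (6.65) and Tie1 in control 2 (3.57). Of the fibroblast markers, Postn, Dcn and Dpt were highest on control 4 and a3a6KO 3, and the rest did not follow fully. Col1a2 read 3.99 in control 4, below every a3a6KO value (4.21 to 4.58). Lum read 2.63 in control 4 against 3.17 in control 3. Of the endothelial markers 0 were above background on every array and 4 on none, and of the fibroblast markers 0 and 5. Of the basal list, the contractile genes Acta2 (10.37 and 9.8), Mylk, Tagln, Cnn1 and Myh11 were also highest on control 4 and a3a6KO 3. Krt14 was highest in control 2 (10.91). The mean deviation of the basal list was 1.42 in control 4, 0.91 in control 2 and 0.76 in a3a6KO 3. Adipocyte markers did not single out control 4 and a3a6KO 3 (-0.15 to 0.25 in a3a6KO and -0.30 to 0.11 in control). Of their 9 genes, 8 were above background on no array, Plin1 among them, with Fabp4 the exception. Of 9 macrophage and leukocyte markers, 8 were above background on no array. With the endothelial level as a covariate the Cd36 difference was 0.0043, and without both arrays 0.0067. How much of the Cd36 signal on those arrays came from other cells was not tested.

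**Figure D3:**
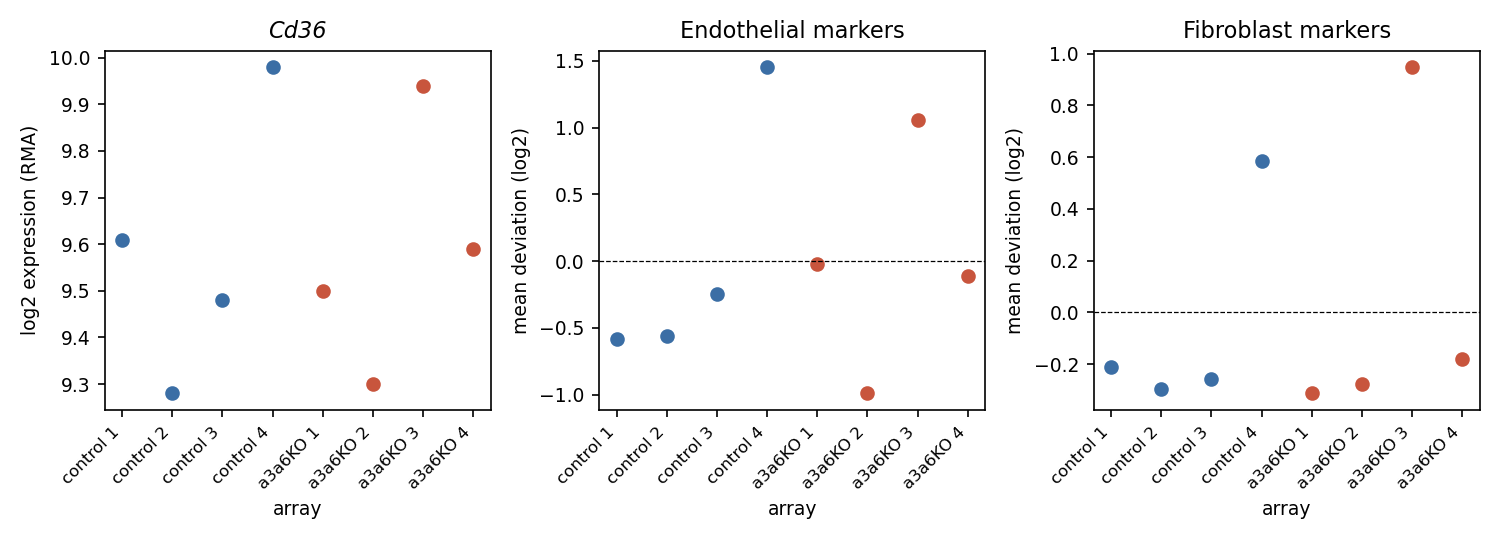
Cd36 level (log2, left) and the mean deviation of endothelial (middle) and fibroblast markers (right) from each gene's own mean, per array, with control in blue and a3a6KO in red. Control 4 and a3a6KO 3 are the highest 2 arrays in all 3 panels. The left axis does not start at 0.

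The variation among samples was shared across the 10 genes on some arrays. On a3a6KO 2, 10 of 10 genes lay below their own 8-array mean and 5 had their lowest value (Xdh, Plin2, Mfge8, Muc1 and Fabp3), with a median deviation of -0.35. Of the 1609 genes above background on every array, 46.3% were below their mean on that array. Mean deviations of droplet lipolysis (-0.40), other globule membrane (-0.26), fatty acid uptake (-0.20), other mucin (-0.20) and other butyrophilin genes (-0.18) were also lowest there. Those of droplet assembly (0.09), regulators (0.06) and other droplet coat genes (0.05) were above 0. Mfge8 partners (-0.19) and molybdenum genes (-0.04) were not at their lowest. On control 1, 10 of 10 genes lay above their mean, with a median deviation of 0.30, where 52.1% of the 1609 genes were below theirs. The other arrays had between 3 and 7 genes above their mean. The array a3a6KO 2 also had the lowest Itga6, Itga3 (under background), endothelial markers and basal keratin genes (mean deviation -1.43), and the highest luminal markers (0.18). On a3a6KO 1, next lowest in Itga6 at 5.95, the median deviation was -0.067, with 4 of 10 genes above their mean. Whether these levels are related was not tested. Without a3a6KO 2, 6 of 10 genes had lower means in a3a6KO.

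**Figure D4:**
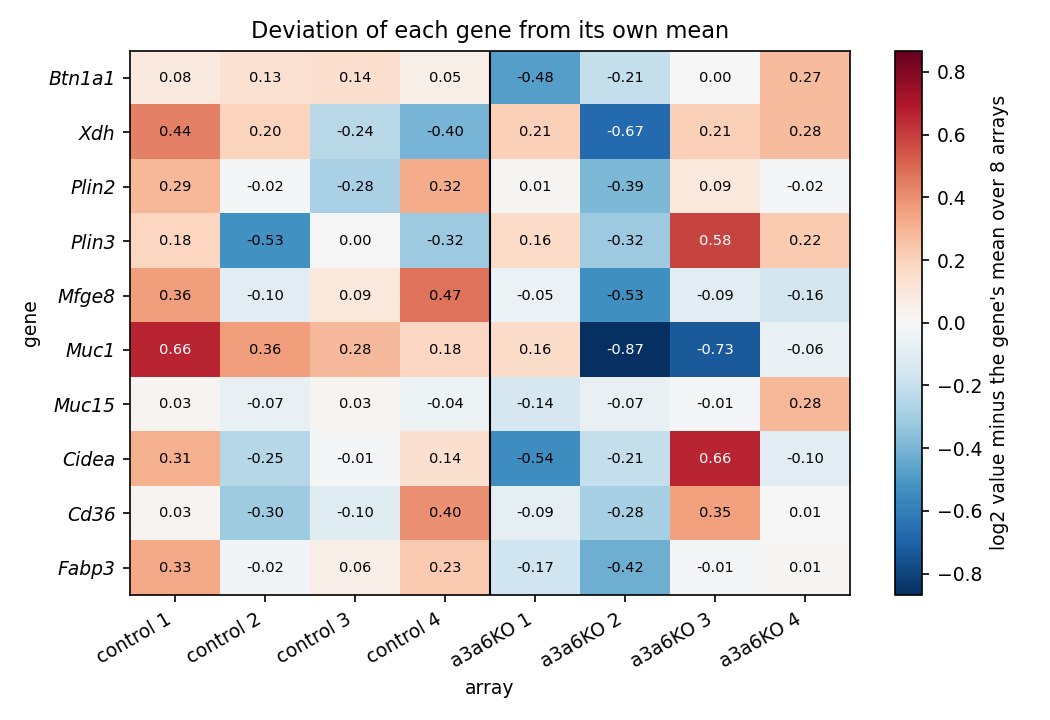
Log2 value of each gene (rows) on each array (columns) minus that gene's mean over the 8 arrays. The column of a3a6KO 2 is below 0 for all 10 genes and that of control 1 above 0 for all 10, and the Muc1 row runs from 0.66 to -0.87.

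Among other genes of the same processes, 0 passed the threshold in either direction. The other droplet coat genes Plin1, Plin4, Plin5, Cideb and Cidec were above background on 0 arrays (3 higher, 2 lower, median 0.11), with Cidec at 0.36 (SE 0.242). Of 8 genes of droplet assembly and growth, 5 were higher and 3 lower (median 0.07), and 5 were above background on no array. Among the latter was Dgat1, the final enzyme of triglyceride synthesis, at 0.28 (SE 0.298). The 6 genes of droplet lipolysis and its inhibitors were evenly split (median 0.05). The monoglyceride lipase gene Mgll differed by -0.64 (SE 0.377), the hormone-sensitive lipase gene Lipe by 0.28 (SE 0.305) and Pnpla2, encoding the first lipase of droplet breakdown, by -0.19 (SE 0.268). Lipe was above background on 0 arrays, and Mgll on 2 control arrays and 1 a3a6KO array.

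Of 13 other globule membrane proteins, 7 were higher and 6 lower (median 0.02), and 10 were above background on every array. At an unadjusted limma p under 0.05, 2 of the 13 were lower, against 2.73% of all genes. The phosphate transporter gene Slc34a2 stood at 8.08, 6.40, 6.78 and 7.24 in control and at 6.19, 4.2, 5.7 and 6.37 in a3a6KO, where it was above background on 0 arrays. Its groups did not overlap, by 0.03, the only 1 of the 13, against 2.94% of all genes in either direction. The Slc34a2 difference was -1.51 (SE 0.509, adjusted p = 0.944 in limma). Tlr2, an innate receptor gene, differed by -0.76 (SE 0.297), with control 8.44, 7.70, 7.93 and 8.82 and a3a6KO 6.96, 7.29, 7.66 and 7.93, so that the groups overlapped. Cd14, which encodes a co-receptor of the same pathway, differed by -0.56 (SE 0.342).

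Family members of the 10 genes gave no difference past the threshold either. The other membrane-bound mucins Muc20, Muc4 and Muc13 differed by -0.12, -0.075 and -0.03. The 7 other butyrophilin genes were above background on 0 arrays (4 higher, 3 lower), with Btnl1 at -0.31 (SE 0.159). Of 10 genes for molybdenum enzymes and their cofactor, which Xdh needs, 5 were higher and 5 lower, and 8 were above background on no array. The 3 of smallest p were the cofactor synthesis genes Gphn at 0.58 (SE 0.284) and Mocs3 at 0.27 (SE 0.157) and the sulfite oxidase gene Suox at 0.63 (SE 0.424), each above background on 0 arrays. Mocs3 was the only 1 of the 10 whose groups did not overlap, against 2.94% of all genes in either direction. It was higher in a3a6KO, with a gap of 0.02 between values under background. Partners and clearance receptors related to Mfge8 were lower in 6 of 9 (median -0.02), with Axl at -0.43 (SE 0.391) and Gas6 at -0.30 (SE 0.350), both above background on 0 arrays.

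Genes of fatty acid uptake and binding were lower in 12 of 21 (median -0.06), and 12 of the 21 were above background on no array. The acyl-CoA synthetase gene Acsl4 differed by -0.36 (SE 0.188) and the fatty acid transporter gene Slc27a4 by 0.59 (SE 0.418). Slc27a4 was above background on 1 control array and 4 a3a6KO arrays. Of 13 regulators of milk lipid genes, 10 were lower, against 50.1% of all genes, and 3 higher, with a median of -0.23. Of these 13, 7 were above background on no array and 2 on every array. Thrsp, a regulator of fatty acid synthesis, stood at 9.17, 8.63, 8.41 and 8.72 in control and at 8.04, 8.01, 8.33 and 8.53 in a3a6KO. The groups overlapped, and the difference was -0.50 (SE 0.211). Thrsp was the only 1 of the 13 with an unadjusted limma p under 0.05, against 5.13% of all genes. Akt1, a kinase gene of insulin signalling, differed by -0.62 (SE 0.427) and was above background on 1 control array and 0 a3a6KO arrays.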

How the data were processed

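Total RNA of 8 samples was hybridised to 1 Affymetrix array each. The authors deposited log2 values. Per the submitters' processing notes, the tools were Affymetrix Expression Console and RMA, which corrects background, normalizes arrays by quantiles and summarizes probes. Quantile normalization removes a shift shared by most genes. The sources used here do not give their versions or the genome build. Values ran from 0.96 to 13.28 and were tested as deposited.

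Of 28846 probe sets, 19572 had 1 symbol in GEO's platform annotation, 0 had several and 9274 had none. The set of highest mean was kept per gene, leaving 19505 genes. The groups were compared with limma 3.58.1 (R 4.3.3; functions lmFit and eBayes, two-sided, all 8 arrays), adjusted over all genes by Benjamini-Hochberg at 0.05, and single genes also by a two-sided exact permutation test. The limma step was tested on simulated data. Depth has no counterpart on arrays, and their number limits the precision. Marker levels per array are averages, over the genes of a list, of the deviation from each gene's own mean.

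The 10 genes and all lists were chosen with earlier results of these data known. Named beside them are up to 3 genes of smallest p per related list, marker genes of highest level, and the 5 genes most like Btn1a1. Cdh5, Emcn, Tie1, Plin1, Lalba and the pair of Muc15 and Btn1a1 were named outside that rule, after their values were seen. The same holds for Dpt, Col1a2, Lum, Mylk, Tagln, Cnn1 and Myh11. The settings tried were single arrays left out, the replicate number as a block, other normalizations, array weights, another variance prior, a filter on dim genes, averaged probe sets and 2 marker covariates. Leaving out both arrays of high endothelial markers was added after seeing the data. Same-numbered samples did not deviate together (correlations of -0.061 to 0.039), so the numbers were not taken as pairs.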

Additional observations from a re-analysis of the deposited data

Results flagged for a closer look

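Xdh in a3a6KO 2 stood at 6.51, far from the other 3 a3a6KO arrays at 7.39 to 7.46, and the gap made up 0.926 of the group's range. Among the 20 groups of values examined (10 genes in 2 genotypes) this was the only 1, and chance alone gives about 1 in 20.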

How the results depend on the processing

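Over 18 other settings, 0 of the 10 genes passed the threshold in each, and the median difference moved by less than the spread between replicates. Differences of Muc1, Mfge8, Fabp3, Btn1a1, Plin2 and Plin3 kept their sign in every setting that gave a value. Signs could not change with the replicate block, averaged probe sets (1 set per gene), the trend and robust prior or the dim gene filter. None of these alters a gene's difference here, so they are no check on the signs. With the replicate number as a block the median was therefore -0.12, and the count at an unadjusted limma p under 0.05 was 1. That count was 1 to 2 with 1 array left out, 2 after repeated quantile normalization, with the trend and robust prior and with the endothelial covariate, and 0 without both arrays of high endothelial markers, where Muc1 differed by -0.69. Genes whose groups did not overlap numbered 1 to 3 with 1 array left out and 0 after median centring or repeated quantile normalization. Groups separate by chance more readily with fewer arrays. The share of all genes was taken only for the deposited values with every array kept, so these counts have no comparison. Cd36 differed by -0.12 to 0.13 with 1 array left out, and its sign turned after median centring (0.0225), repeated quantile normalization (0.0375), with the endothelial covariate (0.0043) and without both arrays (0.0067). Xdh differed by -0.13 to 0.23 with 1 array left out, by -0.028 with array weights and by -0.19 without both arrays. With 1 array left out, Cidea differed by -0.33 to 0.069 and Muc15 by -0.06 to 0.083. The correlation ranged from -0.084 to 0.64 for Btn1a1 and Xdh, -0.079 to 0.33 for Btn1a1 and Plin2 (-0.48 without the 2 farthest arrays) and 0.11 to 0.93 for Xdh and Plin2. The cause was not tested. Plin3 and Cidea gave no value with dim genes left out.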
